A study of Bos taurus with 47 samples.

Results

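The 150 genes described here kept a similar mean level in bovine Longissimus muscle at 3 stages and had the widest spread between fetuses among such genes. The choice used CPM, the count of a gene divided by the total count of its library and multiplied by 1000000. Genes had a fetal mean of at least 10 CPM that lay within 2-fold of the mean at birth and of the mean at slaughter, a run of 37 adjacent table rows being left out. Of 27607 identifiers, 2233 met these criteria, called the eligible genes here, and the 150 with the highest SD of log2(CPM + 1) over 16 fetal libraries were taken, which is 6.72% of them. The fetal spread and the stage means therefore chose the genes and are given as a description, with no test.

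RNA was measured in offspring and further descendants of crossbred Angus heifers of the F0 generation, which gained 0.28 kg (low gain, LG) or 0.79 kg per day (moderate gain, MG) over the first 84 days of gestation. The F0 heifers were then kept as a single herd, and F1 heifers were managed alike whatever their dam's gain. Longissimus dorsi of F2 fetuses at day 84 was sampled in 8 LG and 8 MG libraries. F1 heifers gave Longissimus thoracis, with 8 LG and 8 MG libraries at birth. At slaughter the labels, which were followed here, give 8 LG and 7 MG libraries, where the protocol has 7 LG and 8 MG. Fetal stage, generation and the muscle region dissected go together and cannot be told apart. Libraries carry a number, and the labels do not state whether a number shared between stages marks a dam and its fetus or whether each number is a separate animal.

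Longissimus is the long muscle of the back. In a fetus of this age its fibres are still being laid down by the fusion of myoblasts, while the fibres of a newborn calf are already formed and later growth comes mainly from their enlargement. A piece of whole muscle also holds connective tissue, vessel, nerve and blood cells, so in bulk RNA fewer cells of a type and less RNA per cell cannot be told apart. The deposited tables pair the identifiers with no names, and the reference gene table used here matched 0 of them, so genes are given by identifier, no role is assigned to any of them and the tissue label could not be checked against marker genes.

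Total counts ran from 13308433 to 32547565 over 47 libraries. The least covered of the 150 genes had a median of 68 counts over the fetal libraries, the median gene had 226, and the lowest single count was 3. Of the fetal libraries, MG 20 and LG 41 stood apart. The 37 rows left out took 5.54% of counts in MG 20 and 5.19% in LG 22, and between 1.48% and 3.30% in the other fetal libraries. In LG 41, 15281 genes had a count, against 16199 to 18919 in the other fetal libraries. Total counts were 15693199 in MG 20 and 21680869 in LG 41, within the range of the other fetal libraries.

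The 150 genes varied together. The median Pearson r between pairs of them over the 16 fetal libraries was 0.89, against 0.13 between pairs of all 2233 eligible genes, and 86.9% of their pairs had an r over 0.5, against 31.4%. The first principal component of their log2(CPM + 1) held 80.6% of the variance between fetuses, against 65.0% for all eligible genes. The points of these correlations share a library, its total count and its composition, and the genes were chosen on the same values, so the correlations describe these 16 libraries. Average linkage at r of 0.5 put 136 genes into a main group, 11 into the second group and left 3 apart.

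**Figure D1:**
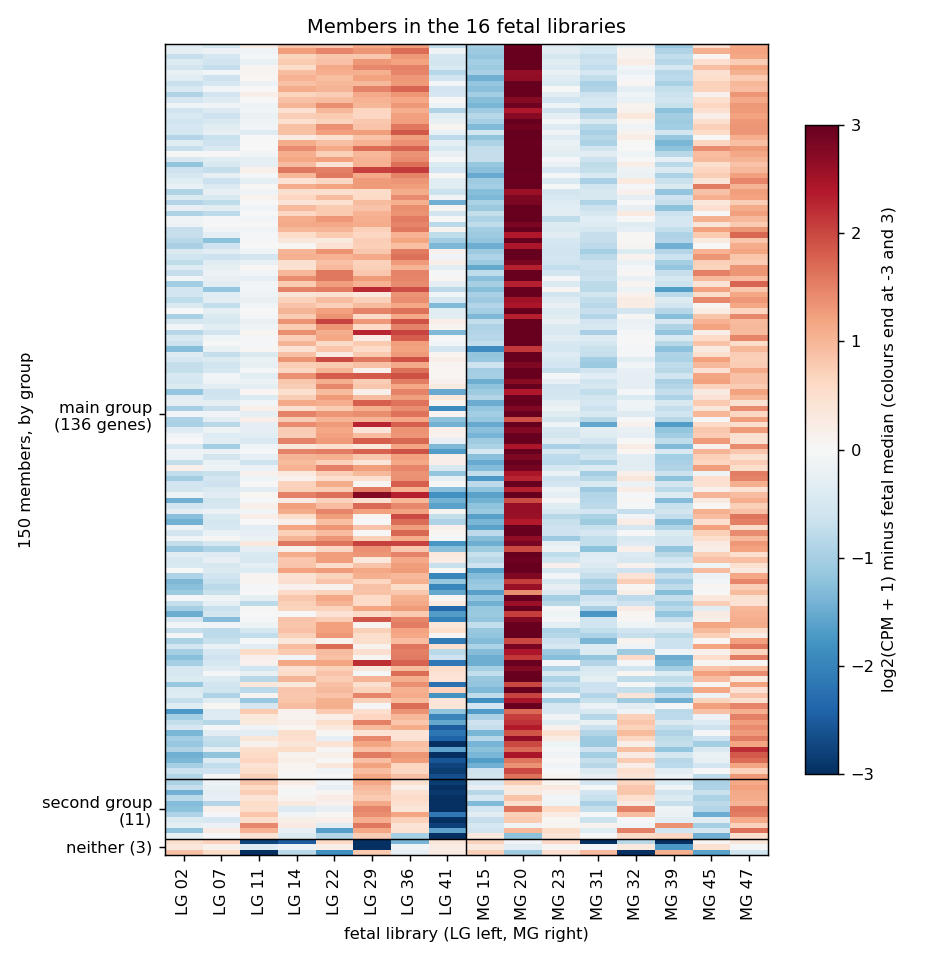
Level of the 150 genes (rows) in the 16 fetal libraries (columns, LG left and MG right), as log2(CPM + 1) minus the gene's fetal median. The column of MG 20 is above the median for all 136 genes of the main group, and that of LG 41 is below it for all 11 genes of the second group.

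The main group of 136 genes was high in fetal library MG 20. Its median level there was 2.92 above the fetal median on the log2(CPM + 1) scale. The next libraries were LG 36 at 1.32, MG 47 at 1.08, LG 22 at 0.94, LG 29 at 0.91, LG 14 at 0.77 and MG 45 at 0.54. The remaining libraries ran down to -0.68 in MG 31, -0.80 in MG 39 and -1.12 in MG 15. High and low libraries thus occurred with both LG and MG labels, and the levels formed a graded series below MG 20. The main group's genes summed to 26797 CPM in MG 20, against 1668 to 10961 CPM in the other 15 fetal libraries.

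MG 20 was more than 2-fold above the fetal median, on the log2(CPM + 1) scale, for 136 of 136 main-group genes, where 27.1% of all eligible genes were, 606 of 2233. It was the highest fetal library for 134 of them. The exceptions, named after their values were seen, were ENSBTAG00000006501 and ENSBTAG00000003165, both highest in MG 47. The CPM in MG 20 was 2.63 to 20.9 times the fetal median, with a median of 8.10 times, and a median of 2.79 times the highest other fetal library. MG 20 held a median of 38.2% of a main-group gene's sum of squares around its fetal mean, against 16.4% over all eligible genes. Below MG 20, the second highest library was LG 36 for 66 genes, MG 47 for 28, LG 29 for 19 and LG 22 for 18, and the lowest was MG 15 for 74, LG 41 for 36 and MG 39 for 15.

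**Figure D2:**
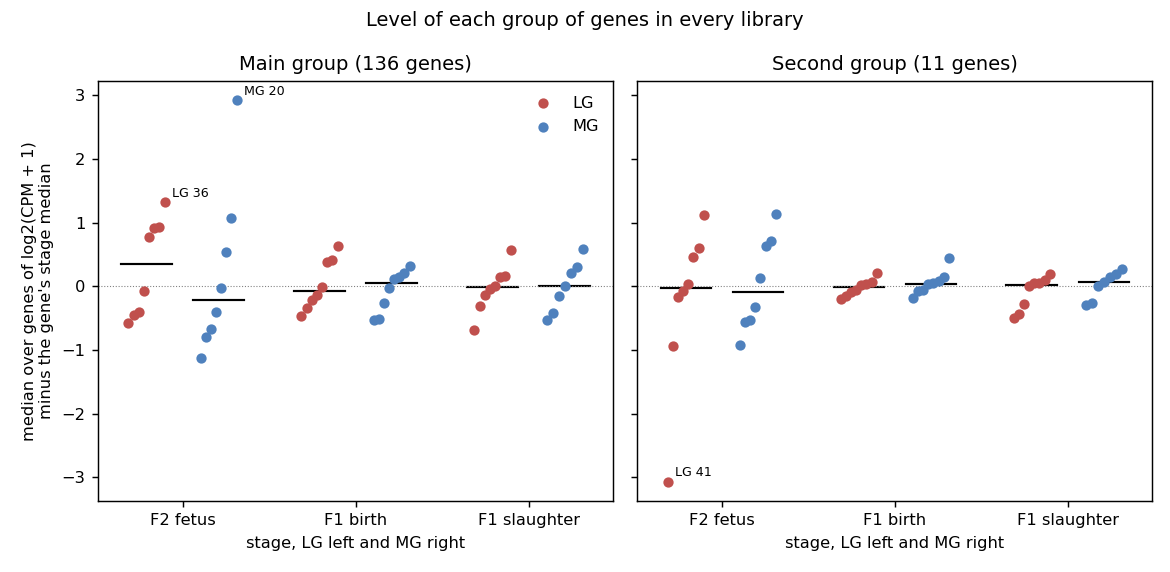
Median level of the main group (left, 136 genes) and of the second group (right, 11 genes) in each library, as log2(CPM + 1) minus the gene's median at that stage; each point is 1 library and black lines are medians of the LG or MG libraries. The main group is highest in fetal MG 20 at 2.92, the second group is lowest in fetal LG 41 at -3.07, and libraries of both F1 stages lie close together.

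Without MG 20, 124 of the 136 main-group genes still formed a group of their own, while the other 12 joined the 11 genes of the second group. Over the other 15 fetal libraries, the median r within the main group was 0.86, against 0.91 with all 16, and the median SD was 0.87 against 1.08. Of the 150 genes, 95 still met the mean criteria without MG 20, and 70 were still among the 150 with the highest SD, of which 56 were in the main group. The selection without LG 41 kept 121 genes, and 31 genes were chosen whichever of the 16 fetal libraries was left out.

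ENSBTAG00000008915 was among the 3 genes with the highest mean r to the rest of the main group. In fetuses it ran from 27.8 CPM in LG 02 to 111.7 CPM in LG 36 with a median of 57.5 over 8 LG libraries, and from 15.7 CPM in MG 15 to 517.9 CPM in MG 20 with a median of 32.2 over 8 MG libraries. LG and MG libraries overlapped, and MG 20 alone lay above every LG library. ENSBTAG00000003949 had the same order at its ends, with 19.2 to 79.1 CPM in LG and 13.5 to 309.1 CPM in MG fetuses. ENSBTAG00000008896 spanned 5.72 to 25.5 CPM in LG and 4.21 to 84.5 CPM in MG fetuses, and its highest libraries were again LG 36 and MG 20.

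Some of the genes with the widest fetal spread were also close to 0 in single libraries. ENSBTAG00000048798 had an SD of 1.60, and its levels ran from 0.231 CPM in LG 41 to 28.02 CPM in LG 29 (median 7.36) in LG fetuses and from 0.421 CPM in MG 15 to 69.1 CPM in MG 20 (median 2.85) in MG fetuses. ENSBTAG00000007236, with an SD of 1.57, ran from 1.87 to 29.3 CPM in LG fetuses. In MG fetuses it ran from 1.02 CPM in MG 39 to 112.5 CPM in MG 20. In both genes MG 20 was about the same distance from the fetal median, at 20.9 and 20.6 times it. ENSBTAG00000002392, with an SD of 1.58, had both ends in single libraries, with 0.369 CPM in LG 41 and 124.9 CPM in MG 20. ENSBTAG00000021024 was the most abundant of these examples, with 20.2 to 292.2 CPM in LG and 24.999 to 511.8 CPM in MG fetuses. The other 6 main-group genes of the 12 with the highest fetal SD, ENSBTAG00000007442, ENSBTAG00000009665, ENSBTAG00000027932, ENSBTAG00000018851, ENSBTAG00000009242 and ENSBTAG00000011319, had SDs of 1.36 to 1.53. Each was highest in MG 20, at 67.3 CPM in ENSBTAG00000011319 up to 151.9 CPM in ENSBTAG00000009242. Their second highest library was LG 29 in 3 of them, LG 36 in 2 and LG 22 in 1, so an LG fetus stood next to MG 20 in each.

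The second group of 11 genes was low in fetal library LG 41. Its median level there was -3.07 on the log2(CPM + 1) scale relative to the fetal median. The others ran from -0.94 in LG 02 and -0.92 in MG 45 to 1.13 in LG 29 and 1.13 in MG 47. Over all eligible genes, the median level was also lowest in LG 41, at -0.44, and highest in MG 47, at 0.30. LG 41 was more than 2-fold below the median for 11 of 11 genes, where 24.5% of all eligible genes were. It was the lowest library for 10 of the 11, the exception being ENSBTAG00000012066, lowest in LG 22 at 14.4 CPM. The fetal median was 3.19 to 35.0 times the level in LG 41, with a median of 13.3 times, and LG 41 held a median of 49.9% of a gene's sum of squares. MG 20, the library that stood out in the main group, was 0.72 above the median in the second group.

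ENSBTAG00000020312, ENSBTAG00000011322 and ENSBTAG00000021091 had the highest mean r within the second group. ENSBTAG00000020312 had 1.01 CPM in LG 41 and up to 31.2 CPM in LG 29 (median 14.3) in LG fetuses, against 6.44 to 30.7 CPM (median 11.9) in MG fetuses. ENSBTAG00000011322 had 1.25 CPM in LG 41 and up to 37.6 CPM in LG 29 (median 17.5), against 9.34 to 44.96 CPM (median 20.5) in MG fetuses. In each gene LG 41 was below every MG library and the other 7 LG libraries overlapped the MG libraries. Without LG 41, 0 of the 11 genes stayed among the 150, their median SD was 0.74 against 1.05, and 9 of them joined the main group's 136 genes in a single group of 145.

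3 genes followed neither group. ENSBTAG00000003278 had the highest fetal SD of all, 1.88, with low values in several libraries of both gains. It had 0.173 CPM in LG 29, 3.92 in LG 11, 4.97 in LG 14 and 11.9 in LG 36, against 42.2 to 53.3 CPM in the other 4 LG libraries. In MG fetuses it had 0.957 CPM in MG 39, 3.17 in MG 31 and 17.9 in MG 32, and 30.97 to 52.99 CPM in the other 5 libraries. At birth all libraries held 31.7 to 77.4 CPM, and at slaughter 9.47 to 49.9 CPM.

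ENSBTAG00000005606 was low in the libraries where ENSBTAG00000003278 was lowest. It had 1.21 CPM in LG 29, against 24.6 to 41.2 CPM in the other LG fetuses, and 9.06 CPM in MG 39, against 25.2 to 44.6 CPM in the other MG fetuses. These 2 genes lie 3 rows apart in the fetal table, at rows 5163 and 5160, and their r was 0.77 over 16 fetal libraries, 0.44 over 16 birth libraries and 0.67 over 15 slaughter libraries. Whether the pair shares reads was not tested. ENSBTAG00000054661 was the most abundant of the 150 genes, with a fetal mean of 11293 CPM. It ran from 1218 CPM in LG 11 to 19949 CPM in LG 02 in LG fetuses, and from 862 CPM in MG 32 to 22899 CPM in MG 39 in MG fetuses. Its lowest libraries were thus neither MG 15 nor LG 41, the lowest of the main and of the second group. Its low libraries at the F1 stages were LG 25 with 6667 CPM and MG 12 with 6552 CPM at birth, and LG 11 with 2358 CPM and MG 47 with 2963 CPM at slaughter.

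**Figure D3:**
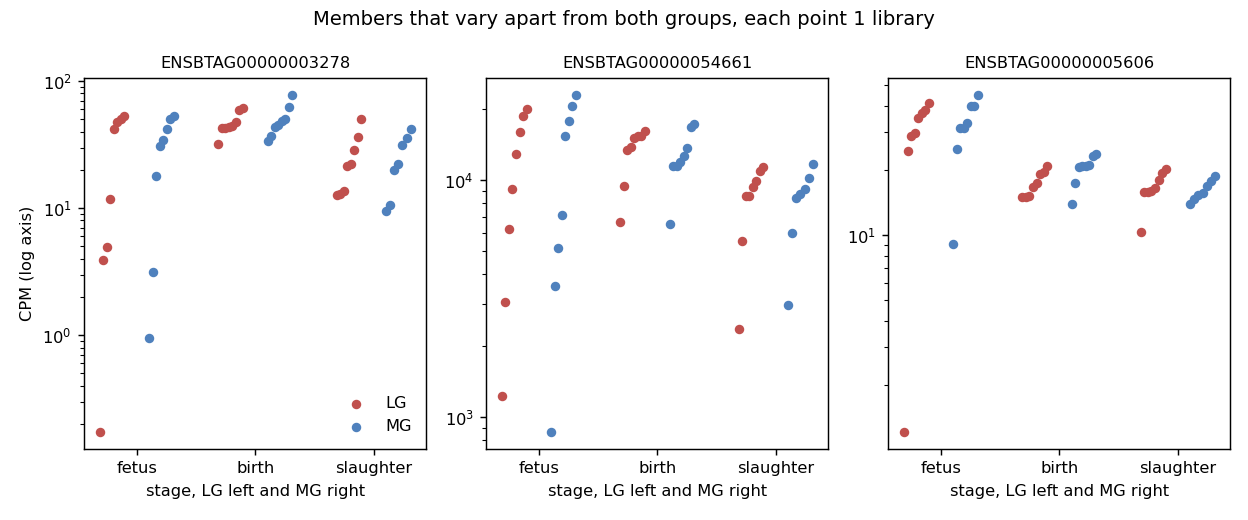
Level of the 3 genes that followed neither group, in CPM on a log axis, in each library of the 3 stages (LG left, MG right, each point 1 library). ENSBTAG00000003278 reaches down to 0.173 CPM and ENSBTAG00000005606 to 1.21 CPM in fetal LG 29, and both are higher than that in every F1 library.

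The similar stage means rested partly on MG 20. The mean at birth was a median of 0.973 times the fetal mean over the 150 genes, and that at slaughter 1.04 times. For medians over libraries in place of means, the ratios were 1.49 at birth and 1.53 at slaughter, against 0.973 and 0.936 over all eligible genes. The fetal median was below the birth median for 126 of the 150 genes and below the slaughter median for 126, and 60 genes had a fetal median under 10 CPM. By medians, 92 of the 150 genes lay within 2-fold at both F1 stages. In the main group, MG 20 exceeded every birth library for 134 of 136 genes and every slaughter library for 135. The median of the other 15 fetal libraries was below every birth library for 57 genes and below every slaughter library for 62. The choice favours such counts, since it held fetal means near the F1 means while MG 20 held much of the fetal spread. Their share over all eligible genes is not given here.

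The stage means also rested on the scaling. TMM scaling, which sets libraries against each other by the bulk of their genes, had a geometric mean factor of 1.499 in fetuses, 0.834 at birth and 0.788 at slaughter. With TMM-scaled CPM, 62 of the 150 genes were more than 2-fold higher at birth than in fetuses and 80 were more than 2-fold higher at slaughter. At either stage 0 were lower by as much, and 34 met the mean criteria. These factors raise F1 levels against fetal ones for every gene, and the choice kept means within 2-fold. The direction of these counts was therefore set in advance, and the share over all eligible genes is not given here. The name stage-stable therefore describes these genes for means of CPM on total counts only. The fetal pattern was less dependent on the scaling, with a main-group r of 0.88, a median SD of 0.92 and a deviation of MG 20 of 2.43 on TMM-scaled values, the next library being at 1.08.

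In F1 muscle the median spread of the genes was above that of all eligible genes. The choice had used the means of these F1 libraries but not their spread. Their median SD of log2(CPM + 1) was 0.425 over 16 libraries at birth, with a range of 0.136 to 0.740, against 0.244 for all eligible genes. At slaughter it was 0.460 over 15 libraries, with a range of 0.0982 to 0.904, against 0.196. In the main group the median SD was 0.439 at birth and 0.472 at slaughter. In the second group it was 0.237 at birth, not above that of all eligible genes, and 0.316 at slaughter. Of the 150, 80 were among the 223 eligible genes with the highest SD at birth and 80 among the 223 at slaughter, 53.3% each time, where 9.99% of all eligible genes were. At both stages 63 of them were, of 128 eligible genes that were. The main group provided 78 of these genes at birth and 74 at slaughter, and the second group 1 and 4. Named after their values were seen, those of the second group were ENSBTAG00000004899 at both stages and ENSBTAG00000024269, ENSBTAG00000018093 and ENSBTAG00000014455 at slaughter.

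No gene had an F1 spread as wide as its fetal one. The SD was above the fetal SD for 0 of 150 genes at birth and for 0 at slaughter, and the fetal SD was a median of 2.58 times that at birth and 2.44 times that at slaughter, against 1.86 and 2.12 times for the other 2083 eligible genes. Since the genes were chosen for a high fetal SD, these ratios are raised by the choice. Over the 2233 eligible genes, Spearman's rho of fetal SD with SD was 0.41 at birth and 0.39 at slaughter, and 0.58 between the F1 stages, across genes that are not independent. SD went with a low level (rho of SD with mean CPM -0.32 at birth and -0.30 at slaughter), and the 150 genes were lower, with a median fetal mean of 17.8 CPM against 33.5 CPM over all eligible genes. The part of the level in their F1 spread was not tested.

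**Figure D4:**
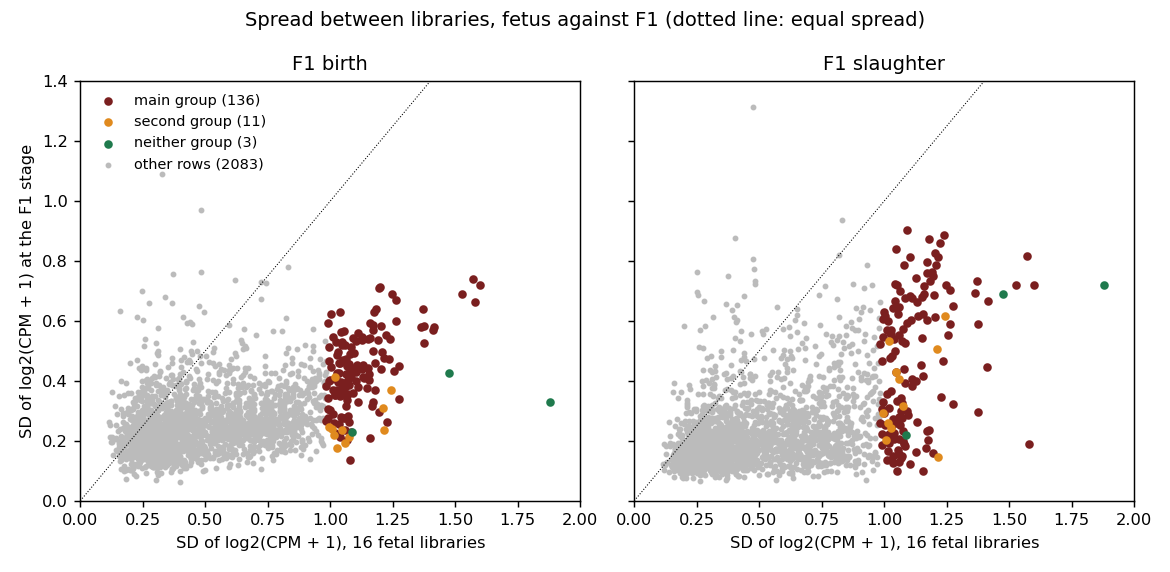
SD of log2(CPM + 1) over fetal libraries (x axis) against the SD at birth (left) and at slaughter (right) for 2233 eligible genes, with the 150 chosen genes coloured by group. All 150 lie below the line of equal spread, and main-group genes reach 0.740 at birth and 0.904 at slaughter.

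The main group also varied together in F1 muscle. The median r between its genes was 0.68 over birth libraries and 0.67 over slaughter libraries, against 0.22 and 0.069 between all eligible genes. On TMM-scaled values these were 0.62 and 0.47, against 0.024 and 0.14. Within the second group the median r was 0.45 at birth and 0.57 at slaughter. The first component of all 150 genes held 69.1% of their variance at birth and 78.3% at slaughter, against 29.9% and 36.98% for all eligible genes.

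No F1 library stood as far out in the main group as fetal MG 20. At birth the main group was highest in LG 25, at 0.64 on the log2(CPM + 1) scale above the stage median with 20 genes more than 2-fold above, and lowest in MG 21 at -0.53, MG 13 at -0.51 and LG 05 at -0.47. At slaughter it was highest in MG 31 at 0.58 and LG 36 at 0.57, with 28 genes more than 2-fold above in each, and lowest in LG 07 at -0.69, with 47 genes more than 2-fold below, and MG 32 at -0.52. LG 36 was thus high at slaughter and in fetuses, while MG 31 was high at slaughter and low in fetuses. In fetuses LG 07 was at -0.44 and MG 32 at -0.03. Other shared numbers, apart from 20, are not set side by side here. The F1 libraries that carry number 20 were at 0.12 at birth and -0.42 at slaughter. Over all eligible genes, the median level was at -0.02 in LG 25 at birth. At slaughter it was at 0.06 in MG 31, 0 in LG 36 and 0.04 in LG 07. The share of all eligible genes more than 2-fold away in these libraries is not given here.

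2 of the 3 genes with the highest SD at birth were ENSBTAG00000007236 and ENSBTAG00000048798, which were also among the widest in fetuses. ENSBTAG00000007236 had an SD of 0.740 at birth. It ran from 4.45 CPM in LG 05 to 22.95 CPM in LG 25 (median 10.6) in LG calves. In MG calves it ran from 2.98 CPM in MG 13 to 15.6 CPM in MG 20 (median 7.41). At slaughter, ENSBTAG00000048151 had the highest SD, 0.904. It had 0.878 CPM in LG 07 and up to 14.6 CPM in LG 36 (median 6.50) in LG heifers. In MG heifers it had 2.22 CPM in MG 20 and up to 17.6 CPM in MG 31 (median 7.13). LG and MG libraries overlapped in both genes. ENSBTAG00000019020 and ENSBTAG00000002279, next in SD at slaughter with 0.886 and 0.872, were highest in MG 31, with 48.2 and 39.4 CPM, and LG 36 came next, with 39.5 and 36.5 CPM. In contrast, ENSBTAG00000002392, with its wide fetal range, had an SD of 0.664 at birth and of 0.189 at slaughter, where its 15 libraries held 29.5 to 51.0 CPM.

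Many genes outside the 150 shared the fetal pattern, measured over libraries that include MG 20. There the main group was at 2.92, so MG 20 alone weighs heavily in the correlations below. Their values without MG 20 are not given here. Of 8461 genes with a fetal mean of at least 10 CPM, 1511 (17.9%) had an r of at least 0.8 with the mean of the main group over the 16 fetal libraries, and 130 of these were among the 150. A further 626 (7.399%) had an r of -0.8 or below, none of them among the 150, with a median fetal SD of 0.336 against 0.792 for those that went with the main group. Among eligible genes, 656 went with the main group and 113 ran against it, and the highest fetal SD of the 113 was 0.587. The 656 comprised 130 of the 150 genes and 526 other eligible genes. Of the 1511 genes, 240 had a mean more than 2-fold higher and 395 a mean more than 2-fold lower at birth than in fetuses, against 726 and 4442 of the 8461. At slaughter 323 were higher and 427 lower by as much, against 821 and 4906 of the 8461.

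LG and MG fetuses were compared to ask whether the gain of the granddam goes with the level of these genes, labels that the choice had ignored. The choice did use the spread of the same libraries, which enters the SE of this test, so a count of 0 does not show that the gains are alike. With edgeR's quasi-likelihood test and Benjamini-Hochberg adjustment over 14200 genes, 0 of 150 passed an adjusted p of 0.05, where 0% of all genes did, and the lowest adjusted p among them was 1.00. An unadjusted p under 0.05 was reached by 0 of the 150, where 0.718% of all genes reached it. The log2 fold changes of LG over MG ran from -0.91 to 0.31 with a median of -0.29 and a median SE of 0.55, against a median of -0.04 over all genes tested. DESeq2 and limma voom also called 0. At an unadjusted p under 0.05, DESeq2 had 2 of the 150, where 344 of all 21730 genes tested were. Limma voom had 0 of the 150, where 118 of 14200 were.

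The direction of that comparison turned on MG 20. With all 16 libraries, 16 genes were higher and 134 lower in LG. Without MG 20, 137 were higher and 13 lower, the median log2 fold change was 0.51 with a range of -0.53 to 1.51, and 27 of the 150, 18%, had an unadjusted p under 0.05, all of them higher in LG, where 2.66% of all genes had one. 0 passed the adjusted threshold, and the lowest adjusted p was 0.991 (edgeR). Limma voom on all 16 libraries gave a median of 0.17 with 103 genes higher in LG. The genes vary together, so the 27 are not 27 separate observations. MG 20 was left out after its values were seen, and it was the highest fetal library for 134 of the 136 main-group genes. Leaving it out lowers the MG mean and the spread of these genes more than of others. The 18% against 2.66% therefore does not show a difference between the gains.

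The gene with the smallest p, ENSBTAG00000006833, averaged 12.3 ± 6.58 CPM in LG and 20.3 ± 16.5 CPM in MG fetuses (SD, n = 8 each), and differed by -0.69 on the log2 scale (SE 0.46), with an adjusted p of 1.00 in edgeR. ENSBTAG00000006118 averaged 8.39 ± 5.39 CPM in LG and 16.4 ± 27.7 CPM in MG fetuses (SD, n = 8 each). Its log2 fold change was -0.91 (SE 0.64) with all libraries, and 0.35 without MG 20, which held 84.4 CPM. Its LG libraries ran from 2.61 to 18.2 CPM and the other 7 MG libraries from 2.76 to 14.1 CPM, so the gains overlapped.

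**Figure D5:**
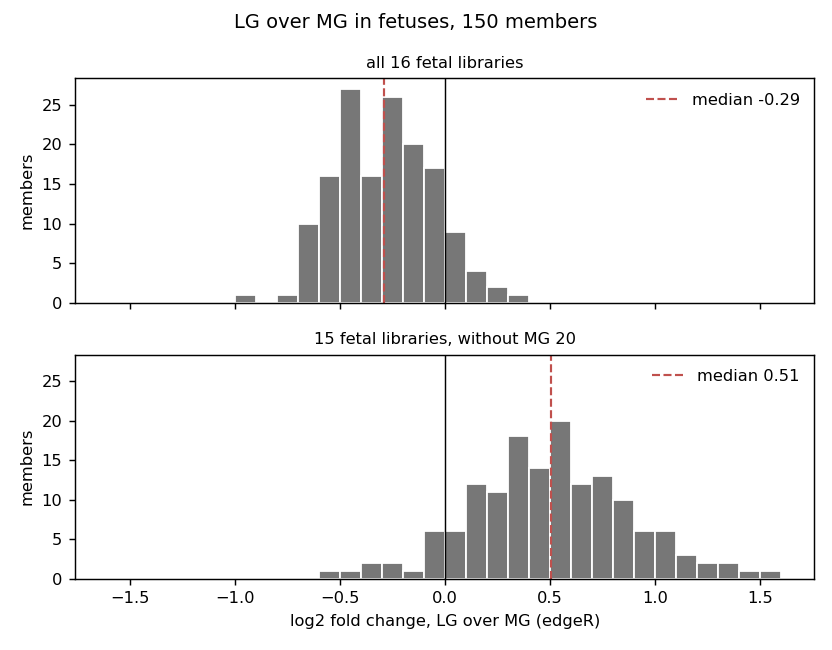
Number of the 150 genes at each log2 fold change of LG over MG in fetuses (edgeR), with all 16 libraries (above) and with the 15 left without MG 20 (below). The median, a dashed line, is at -0.29 with all libraries and at 0.51 without MG 20.

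At birth and at slaughter LG and MG did not differ past the threshold either. At birth 0 of 150 genes passed an adjusted p of 0.05 with edgeR over 12485 genes (0% of all), and 2 had an unadjusted p under 0.05, where 4.12% of all genes did. These, named after their values were seen, were ENSBTAG00000011761 with a log2 fold change of 0.54 (SE 0.20) and ENSBTAG00000026716 with 0.53 (SE 0.25), both higher in LG and both with an edgeR adjusted p of 0.985. The median over the 150 was 0.16, with 123 genes higher and 27 lower in LG and a range of -0.28 to 0.54. At slaughter 0 of 150 passed over 12577 genes (0% of all), 0 had an unadjusted p under 0.05, where 1.83% did, and the median was -0.03, with 58 genes higher and 92 lower in LG. DESeq2 and limma voom called 0 at either stage. At birth, DESeq2 had 3 of the 150 at an unadjusted p under 0.05, where 779 of all 21145 genes tested were. Limma voom had 1 there, where 462 of 12485 were. At slaughter, DESeq2 had 1, where 367 of 20796 were, and limma voom had 1, where 194 of 12577 were.

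The limit of the selection fell within a continuous range of spread. The last genes taken were ENSBTAG00000000362, with an SD of 0.984717, and ENSBTAG00000032839, with 0.982425. The first genes not taken were ENSBTAG00000014691, with 0.982379, and ENSBTAG00000006049, with 0.981061. The genes taken had fetal medians of 16.96 and 10.7 CPM, and those not taken had 15.1 and 22.9 CPM.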

How the data were processed

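Muscle RNA of 47 samples was prepared with a kit that does not mark strand and sequenced as read pairs of 150 bases, per the labels' protocols, so the counts do not separate genes that overlap on opposite strands. The authors deposited whole-number read counts for 27607 identifiers, with 1 table for each of the 3 stages. The submitters' processing notes name STAR 2.7.3a, edgeR 3.24.3, FastQC 0.11.8 and MultiQC 1.9. The genome build, the annotation and the counter are not given in the sources used. The header of the slaughter table is 1 cell short, and its names were read as those of the value columns in order.

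Genes were chosen on CPM over total counts as described at the opening, and the genes, lists and alternatives were chosen with earlier results of these data known. SD, correlation, components and average linkage used log2(CPM + 1) in Python 3.11.15, with groups of at least 8 genes described. LG over MG was tested stage by stage in R 4.3.3, on genes passing filterByExpr of edgeR 4.0.16, with TMM scaling, by edgeR's quasi-likelihood test (robust) and Benjamini-Hochberg adjustment over all genes tested. Alternatives were DESeq2 1.42.0, limma 3.58.1 voom, DESeq2 size factors, no filter, TMM-scaled CPM, a pseudocount of 0.25, Spearman correlation, other stage criteria and leaving out libraries, of which stage medians and the LG and MG comparison and grouping without MG 20 or LG 41 were added after seeing the data. The test was also run on simulated counts. These were drawn separately for each gene with no library set apart as MG 20 or LG 41 was, so they do not cover such libraries. Separate animals are not stated, so a p-value reflects the spread of these libraries, which may be technical.

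Named are the 12 genes with the highest fetal SD, the 3 most central to each group, the 3 with the highest SD at each F1 stage, the 3 with the smallest fetal p between the gains, and those at the limit of the selection, of which the text describes a part. ENSBTAG00000005606 was added as a gene in neither group. A symbol could be assigned to 0 identifiers, so the gene lists and cell type markers set out for this work could not be run.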

Additional observations from a re-analysis of the deposited data

Results flagged for a closer look

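For each named gene, the log2(CPM + 1) values of the LG or of the MG libraries of a stage were examined. A library far from the rest was sought by Dixon's 95% limit on the gap on that scale. Of 180 such groups of values 19 held one. Chance flags about 1 in 20 groups of unselected values, but these genes were named for a wide spread or a small p in the same libraries, so the 19 are a description. Fetal MG 20 accounted for 10 of the 19, all on the high side. It held 69.1 CPM of ENSBTAG00000048798, 89.5 of ENSBTAG00000007442, 82.0 of ENSBTAG00000009665, 95.3 of ENSBTAG00000027932 and 103.0 of ENSBTAG00000018851. It held 67.3 CPM of ENSBTAG00000011319, 517.9 of ENSBTAG00000008915, 87.6 of ENSBTAG00000018852, 198.7 of ENSBTAG00000002279 and 84.4 of ENSBTAG00000006118. As these genes vary together, the 10 are not separate events.

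Among the other fetal values, LG 41 was far below the other LG libraries for ENSBTAG00000011322, with 1.25 CPM. LG 29 was far below the other LG libraries for ENSBTAG00000005606, with 1.21 CPM, and MG 39 was far below the other MG libraries for the same gene, with 9.06 CPM. At birth, MG 12 was low for ENSBTAG00000054661, with 6552 CPM. At slaughter, LG 36 was high for ENSBTAG00000007442 with 31.8 CPM and for ENSBTAG00000018851 with 35.5 CPM. LG 11 was low for ENSBTAG00000054661 with 2358 CPM, LG 02 for ENSBTAG00000008896 with 16.9 CPM and LG 14 for ENSBTAG00000005606 with 10.3 CPM.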

How the results depend on the processing

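Of the 150 genes, 34 stayed with TMM-scaled CPM, 70 with a 1.5-fold stage window and 59 with stage medians in place of means, the last added after seeing the data. Leaving out 1 fetal library kept 70 (without MG 20) to 144, with a median r of 0.83 to 0.91 and 71.9% to 85.5% of variance on the first component. With TMM-scaled CPM the median SD at slaughter was 0.396, and the median r of the 150 genes was 0.552 at birth and 0.369 at slaughter. There was 1 group that varied together without LG 41 and 2 without MG 20. The median LG over MG log2 fold change in fetuses changed sign with limma voom, to 0.17, and without MG 20, to 0.51, and was -0.28 without LG 41. That of ENSBTAG00000006118 became 0.33 with DESeq2 and 0.35 without MG 20 (-0.86 without LG 41), and that of ENSBTAG00000015474 became 0.14 without MG 20 (-0.57 without LG 41). The cause was not tested. Of the values under alternatives, these 8 counts and summaries moved and these 5 fold changes changed sign, while 75 other counts and summaries moved by less than their spread or, for counts, by less than 1.5 times. A further 51 values of single genes and median fold changes kept their direction, and many of these have no spread to set a move against. Among them, ENSBTAG00000006118 had -0.16 with limma voom, against -0.91 with edgeR. No paired analysis was possible because LG and MG libraries of a stage share no library number. The least covered of these genes had a median of 68 fetal counts, but the lowest values of some rest on few counts. ENSBTAG00000003278, with 0.173 CPM in LG 29, had a fetal SD of 1.88, and of 2.20 with a pseudocount of 0.25. For the abundant ENSBTAG00000054661 it was 1.48 with either. The number of fetuses limits what can be said of MG 20 and LG 41.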
